A study of Poecilia reticulata with 6 samples.

Results

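The second salinity step in the gut of the guppy (Poecilia reticulata), from brackish water at 18‰ to seawater at 35‰, was described with 2 intestinal RNA-seq libraries at each salinity. Expression was given per gene as TPM, a transcript abundance corrected for transcript length and for library size, and a gene was kept when 2 or more of the study's 6 libraries reached a TPM of 1. This left 7897 of the 10389 genes in the table. A gene was taken as a member of the step when both libraries at 35‰ lay above, or both lay below, the 2 libraries at 18‰. There were 3768 such genes, 47.7% of those tested, of which 1474 (18.7%) were higher at 35‰ and 2294 (29.0%) were lower.

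All fish were adult wild-type guppies kept in a circulating water system, and salt was added to their tanks at 3‰ every 2 days until 35‰ was reached over 24 days. Fish at 35‰ had therefore spent longer under rising salt than fish at 18‰, so salinity and time cannot be told apart. The labels wrote the salt as 0%, 18% or 35%, while the protocol wrote permille, which is used here. The labels gave intestine as the tissue. They did not say how many fish went into a library or whether the gut was divided along its length. The p-values below measure the spread between these libraries only, and with 2 libraries in each group an exact permutation test of a single gene could not go below p = 0.333. The fresh water libraries at 0‰ entered the model for its estimate of spread and are given beside the step for orientation. They share the 18‰ libraries with any first step, so the steps are not independent of each other.

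In seawater a bony fish loses water across its gills and replaces it by drinking. The gut takes up the swallowed sodium and chloride, through the apical cotransporter slc12a1 (NKCC2) among others, and water follows, while anion exchangers of the slc26 family secrete bicarbonate in return for chloride. The same epithelium digests and absorbs food, and in teleosts such as zebrafish a posterior stretch takes up whole proteins and breaks them down in large lysosomes.

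The libraries carried the transcripts of intestinal epithelium throughout. The TPM of cdh17, an adhesion protein of enterocytes, lay between 912 and 2236 in the 6 libraries, that of the epithelial adhesion protein epcam between 504 and 1018 and that of the vitamin A carrier rbp2a between 2196 and 4817. These markers moved with the step in opposite directions, cdh17 from 1160.0 and 1201 at 18‰ to 1332 and 2236 at 35‰ and epcam from 867 and 1018 to 504 and 600.2 (log2 fold changes 0.55 and -0.77, neither called), and their part in the results below was not tested. The TPM of the table summed to 419412 to 481864 per library, 1006 to 1275 genes were listed at 0, and the 10 most abundant genes took 18.7% to 28.9% of the sum. Across genes, which are not independent replicates, log2(TPM + 1) of the pair of libraries correlated with r = 0.975 at 18‰ and 0.951 at 35‰. The median gene differed between replicates by 0.21 on the log2 scale at 18‰ and by 0.35 at 35‰, so the seawater libraries were less alike.

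The step was made up of many small differences and few large ones, and the large ones were mostly losses. Among the non-overlapping genes, the median log2 fold change was 0.44 for those higher at 35‰ and -0.55 for those lower, beside a median of -0.07 over all genes tested. A log2 fold change above 1 was found in 133 of the higher genes, and one below -1 in 346 of the lower genes. Beyond 3 on the same scale there were 5 genes higher and 26 lower. The balance between directions changed with abundance. Among genes with a mean TPM under 5, 15.3% were higher and 29.5% were lower, whereas among the 505 genes with a mean TPM of 100 or more, 34.5% were higher and 24.8% were lower. The balance also moved with scaling, since 39.1% of the non-overlapping genes were higher on the deposited values, 48.9% after median-ratio scaling of the libraries and 28.8% after setting each library to one sum. At the edge of the rule, psmb2 was a member with a TPM of 24.74 and 21.85 at 18‰ and 24.75 and 38.07 at 35‰, whereas aak1a, at 5.66 and 5.48 against 5.66 and 5.81, was not.

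The 35‰ libraries did not contribute equally. Of the 2294 lower genes, 1514 were lower in replicate 1 than in replicate 2, and of the 1474 higher genes 679 were higher in replicate 1. Without 35‰ replicate 1 the median log2 fold change over all genes was 0.01, and without 35‰ replicate 2 it was -0.16.

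With limma, 25 genes had an adjusted p under 0.05 and a fold change above 1.5, and these are the genes called below. These 25 (0.317%) were 22 genes that fell (0.279% of those tested) and 3 that rose (0.038%), while 988 genes (12.5%) had an unadjusted p under 0.05. The 22 genes that fell were led by proteases and other hydrolases, and 12 of them had a mean TPM of at least 100 at 18‰. The number of calls was set by single libraries. It was 5 without 18‰ replicate 1, 7 without 18‰ replicate 2, 2 without 35‰ replicate 1 and 32 without 35‰ replicate 2, and without either 0‰ replicate it was 41. All 25 genes kept their direction in each of these fits. This was fixed in advance, since their 18‰ and 35‰ libraries did not overlap and the 0‰ libraries do not enter the difference. For ctsl.1 the log2 fold change stayed between -7.35 and -7.14 when single 18‰ or 35‰ libraries were left out.

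**Figure D1:**
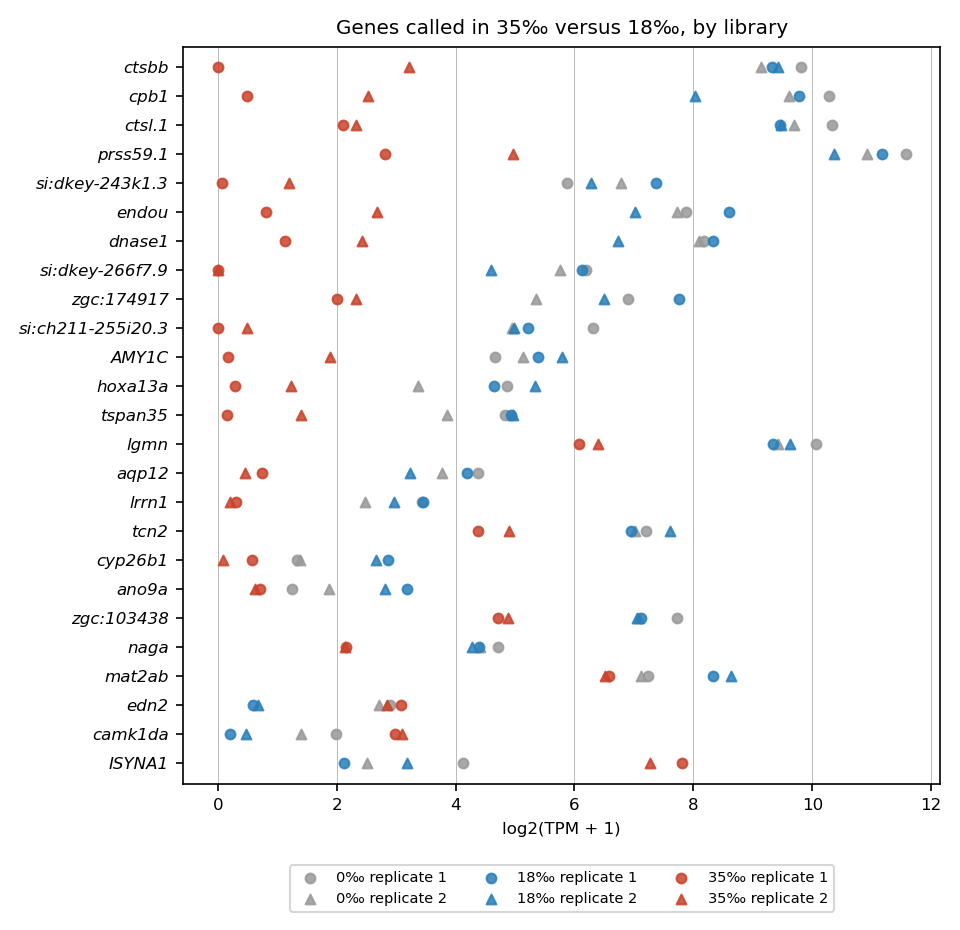
Level of the 25 called genes in each library, as log2(TPM + 1) on the horizontal axis, with grey for 0‰, blue for 18‰ and red for 35‰, and circles and triangles for replicates 1 and 2. For the 22 genes that fell, the red points lie left of the blue and grey ones, and for ISYNA1, edn2 and camk1da the red points lie right of the blue ones.

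Lysosomal proteases were among the genes with the largest falls. The gene ctsl.1, a cathepsin L that cleaves proteins inside lysosomes, had a TPM of 698 and 714 at 18‰ and 3.33 and 4.02 at 35‰. At 0‰ it stood at 1284 and 828, so both fresh water libraries lay with the 18‰ libraries. The log2 fold change from 18‰ to 35‰ was -7.24 (standard error 0.27, adjusted p = 0.000187), and the mean TPM was 192 times higher at 18‰. The cathepsin B gene ctsbb stood at 637 and 683 at 18‰ and at 8.32 in 35‰ replicate 2, and replicate 1 listed it at 0 (log2 fold change -7.76, standard error 0.90, adjusted p = 0.0228). Legumain, lgmn, an asparagine-specific protease that also activates cathepsins, went from 648 and 785 to 66.7 and 82.7 (log2 fold change -3.25, adjusted p = 0.0181). The 18‰ and 35‰ libraries were far apart for all 3, and lgmn kept a higher level at 35‰ than either cathepsin.

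Other genes of the lysosomal degradation route were lower by less, and most of them were not called. Of 11 cathepsins and related proteases tested, 8 (72.7%) were lower and 1 (9.1%) higher without overlap, beside 29.0% and 18.7% of all genes. By the test 3 of the 8 fell, and the median log2 fold change was -0.84. Their TPM summed to 2984 and 3124 at 18‰ and to 521 and 574 at 35‰. Cathepsin C, ctsc, an aminopeptidase that matures other proteases, was not called and had a TPM of 360 and 323 against 117 and 117 (log2 fold change -1.53, adjusted p = 0.125). Of 37 lysosomal enzymes and membrane proteins, 25 (67.6%) were lower and 3 (8.1%) higher, with a median of -0.47. One of them fell by the test, naga, an enzyme that trims sugar chains by removing α-N-acetylgalactosamine, from 20.1 and 18.4 to 3.45 and 3.42 (log2 fold change -2.19, standard error 0.23, adjusted p = 0.0217). The β-hexosaminidase subunit hexb, whose enzyme degrades glycolipids, stood at 114 and 139 against 45.0 and 41.9 and was not called (log2 fold change -1.51, adjusted p = 0.156). The fucosidase fuca1.2 and the galactosylceramidase galcb had log2 fold changes of -1.31 and -1.16 and were not called either.

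The proton pump that acidifies these vesicles was lower almost throughout. Of 17 subunits and accessory proteins of the vacuolar-type ATPase tested, 15 (88.2%) were lower and none higher without overlap, beside 29.0% and 18.7% of all genes. All 17 log2 fold changes were below 0, with a median of -0.45. Their TPM summed to 1225 and 1276 at 18‰ and to 825 and 853 at 35‰. The membrane-ring subunit ATP6V0C stood at 403 and 440 against 217 and 298, and atp6v1c1b at 26.1 and 25.8 against 13.8 and 14.5. No subunit was called by limma, and 3 had an unadjusted p under 0.05. The counts kept this direction under both scalings, with 12 and 17 of the 17 lower and none higher.

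Genes of a list drawn up for protein uptake into the cell were mixed apart from the vitamin B12 carrier tcn2. It had a TPM of 122 and 194 at 18‰ and 19.9 and 29.0 at 35‰, and this fall passed the test (log2 fold change -2.63, standard error 0.30, adjusted p = 0.0228). Of the 10 genes of this endocytosis list tested, 6 (60.0%) were lower and 1 (10.0%) higher, with a median of -0.29, beside 29.0% and 18.7% of all genes. No gene tested carried the symbol cubn, amn, dab2, lrp2 or pllp, which the list also named. The counts therefore describe genes of vesicle traffic in general more than protein uptake. The late endosome GTPase rab7a, at 224 and 164 against 104 and 133, and the sorting nexin snx1a, at 39.8 and 41.5 against 25.3 and 24.0, were lower in both libraries and not called (both log2 fold changes -0.70). A further gene of the rab7a name, RAB7A (ENSPREG00000012148), was the 1 higher member of the list (log2 fold change 0.23).

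**Figure D2:**
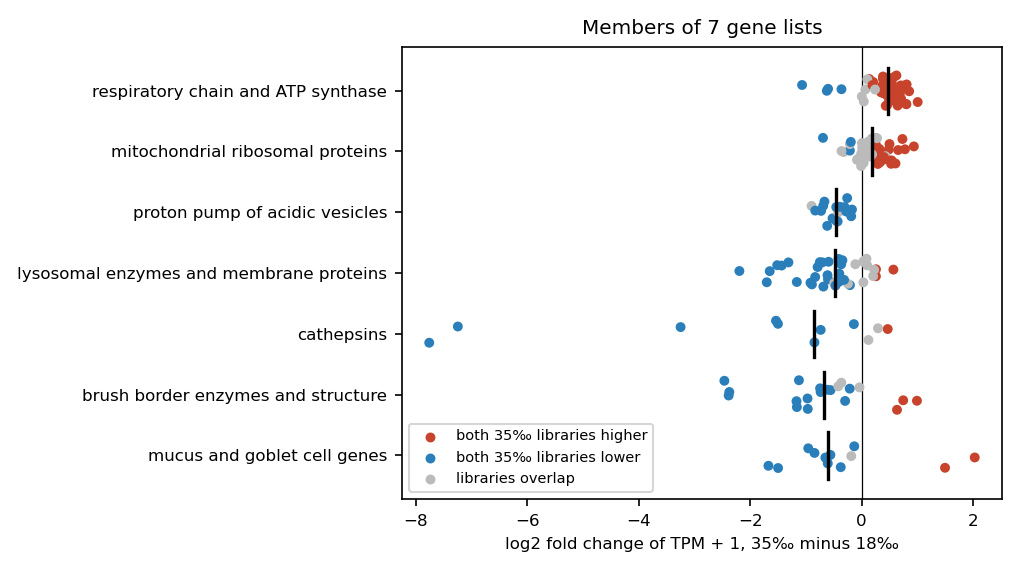
Log2 fold change of TPM + 1 from 18‰ to 35‰ for every tested member of 7 gene lists, 1 point per gene, with red for genes higher in both 35‰ libraries, blue for genes lower in both and grey for genes whose libraries overlapped. Black lines are list medians, which run from 0.48 for the respiratory chain to -0.84 for the cathepsins, and every proton pump subunit lies left of 0.

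Digestive enzymes of the exocrine pancreas were the other group with large decreases. In many teleosts pancreatic tissue is spread along the gut wall and its mesentery, so it can be collected with the intestine. All 4 enzymes tested were lower at 35‰ without overlap, beside 29.0% of all genes. Their median log2 fold change was -6.82, and 2 of them fell by the test. Together they had 6052 TPM in 18‰ replicate 1 and 2824 in replicate 2, against 10.3 and 94.0 at 35‰, beside 11114 and 5340 at 0‰. The trypsin-like protease prss59.1 went from 2319 and 1319.6 to 6.07 and 30.4 (log2 fold change -6.88, standard error 0.67, adjusted p = 0.0217). Carboxypeptidase B, cpb1, which removes basic residues from the ends of peptides, went from 873 and 259.7 to 0.40 and 4.77 (log2 fold change -7.39, adjusted p = 0.0217). The bile salt-activated lipase cel.2, at 2100.1 and 979.5 against 2.94 and 43.0, and the elastase ela2, at 760.1 and 264.8 against 0.93 and 15.8, had folds of like size with wider replicates and were not called (adjusted p = 0.0863 and 0.0884).

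Further genes that fell encode secreted hydrolases or water channels. The amylase AMY1C had a TPM of 40.8 and 54.5 at 18‰ and 0.13 and 2.71 at 35‰ (log2 fold change -4.56, adjusted p = 0.0228). The nuclease dnase1 went from 320 and 106 to 1.2 and 4.37, and the endoribonuclease endou from 386 and 129 to 0.76 and 5.43. The aquaporin aqp12, known in mammals from pancreatic acinar cells, went from 17.4 and 8.44 to 0.68 and 0.37 (log2 fold change -3.12, adjusted p = 0.0277). At 18‰ each of these last 3 was higher in replicate 1 than in replicate 2. That ratio was above 1.5 in 8 of the 22 genes that fell, where it ran from 1.76 to 3.36, and it was 2.14 for cel.2 and 2.87 for ela2. The other 14, with the amylase AMY1C (0.749), ctsl.1, ctsbb and lgmn among them, had ratios from 0.611 to 1.46. The share of all genes with a ratio above 1.5 was not counted, so these counts have no background. The amount of pancreatic tissue in each library was not given, its part in these falls was not tested, and in bulk samples fewer cells of a type and less RNA per cell cannot be told apart.

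Hox genes, which encode position along the body axis, were lower at 35‰, and the posterior ones as a block were lower by more than the anterior ones. Of 19 hox, cdx and related genes tested, 16 (84.2%) were lower and none higher without overlap, beside 29.0% and 18.7% of all genes. The median log2 fold change was -1.47, with 16 and 17 lower under the 2 other scalings. The most posterior one, hoxa13a, had a TPM of 24.1 and 39.3 at 18‰ and 0.22 and 1.35 at 35‰, beside 28.1 and 9.38 at 0‰, and was the only one that fell by the test (log2 fold change -4.23, standard error 0.55, adjusted p = 0.0378). Its neighbour in rank, hoxc13a, had 22.6 and 20.4 at 18‰ and 1.92 in 35‰ replicate 2, with replicate 1 listed at 0 (log2 fold change -3.72, adjusted p = 0.108).

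Taken by paralogue group, the number that orders hox genes from front to back, the 8 genes of groups 2 to 6 had a median log2 fold change of -0.59, from -0.86 to -0.04, and 6 of them were lower without overlap. The 8 genes of groups 8 to 13 had a median of -2.62, from -4.23 to -1.51, and all 8 were lower. Within these blocks the order was not strict, since hoxc10a (-1.51) differed less than hoxc8a (-1.79) and hoxc9a (-1.75), and hoxa5a (-0.45) less than hoxb3a (-0.69). The anterior sums were 34.0 and 44.0 TPM at 18‰ and 22.3 and 26.1 at 35‰. The posterior sums were 149 and 166 at 18‰ and 3.58 and 53.8 at 35‰, so the 35‰ libraries differed from each other as well as from 18‰. In 35‰ replicate 2, hoxc9a still had a TPM of 13.4 and hoxc12a one of 15.8, against 1.71 and 0 in replicate 1. The stretch of gut in each library was not given by the labels. The posterior hox genes were lower at 35‰, as were ctsl.1, ctsbb, lgmn and tcn2. In 35‰ replicates 1 and 2, ctsl.1 stood at 3.33 and 4.02, lgmn at 66.7 and 82.7 and tcn2 at 19.9 and 29.0. In the same libraries ctsbb stood at 0 and 8.32, beside posterior hox sums of 3.58 and 53.8. The part of the posterior hox level in those falls was not tested.

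**Figure D3:**
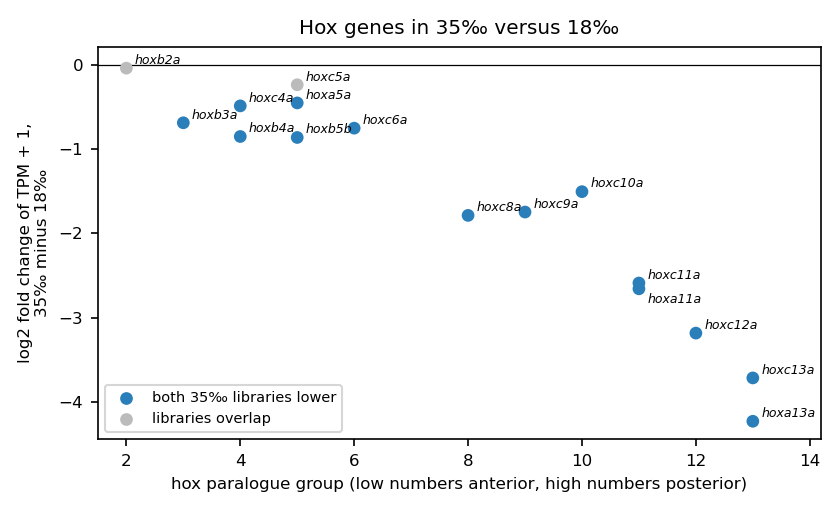
Log2 fold change of TPM + 1 from 18‰ to 35‰ for the 16 hox genes tested, against paralogue group, with blue for genes lower in both 35‰ libraries and grey for genes whose libraries overlapped. The values run from -0.04 for hoxb2a in group 2 to -4.23 for hoxa13a in group 13.

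The other genes that fell share no list. Methionine adenosyltransferase mat2ab, which makes the methyl donor S-adenosylmethionine, had a TPM of 321 and 398 at 18‰ and 94.6 and 90.7 at 35‰ (log2 fold change -1.94, standard error 0.22, adjusted p = 0.0228). At 0‰ it stood at 149.8 and 139, below 18‰. The retinoic acid hydroxylase cyp26b1, which inactivates this vitamin A derivative, went from 6.28 and 5.36 to 0.49 and 0.06, and the anoctamin ano9a from 8.04 and 6.0 to 0.64 and 0.54. At 0‰, cyp26b1 had 1.52 and 1.61 and ano9a 1.37 and 2.66, so both stood lower at either end than at 18‰. The tetraspanin tspan35 (log2 fold change -4.17), the leucine-rich repeat protein lrrn1 (-2.94) and 5 genes that carry only clone names also fell. One of those 5, si:dkey-266f7.9, had 68.6 and 23.3 at 18‰ and was listed at 0 in both 35‰ libraries, so no fold is given for it.

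The 3 genes that rose were ISYNA1, camk1da and edn2. ISYNA1 encodes inositol-3-phosphate synthase, the first enzyme of the synthesis of myo-inositol, an osmolyte that cells store when the water around them is salty. Its TPM was 3.34 and 8.04 at 18‰ and 224 and 153 at 35‰, with a mean 33.2 times higher (log2 fold change 4.90, standard error 0.57, adjusted p = 0.0228). At 0‰ it stood at 16.6 and 4.73, so the fresh water libraries overlapped those at 18‰ and lay far under both at 35‰. Endothelin 2, edn2, a signalling peptide, rose from 0.51 and 0.60 to 7.49 and 6.18 (log2 fold change 2.33, standard error 0.24, adjusted p = 0.0217), and the calcium-dependent kinase camk1da from 0.16 and 0.39 to 6.92 and 7.54 (log2 fold change 2.70, adjusted p = 0.0228). At 0‰ edn2 had 6.49 and 5.54 and camk1da 2.97 and 1.64, all above 18‰.

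The other osmolyte genes went both ways. Of the 12 tested, 4 were higher and 3 lower without overlap, beside 18.7% and 29.0% of all genes. The median log2 fold change was 0.08, or -0.00 after each library was set to one sum. Both taurine synthesis genes were higher and not called. The cysteine dioxygenase cdo1 had a TPM of 415 and 456 against 829.5 and 559 (log2 fold change 0.65, adjusted p = 0.457), and the decarboxylase csad 42.8 and 34.5 against 49.5 and 76.4 (log2 fold change 0.67, adjusted p = 0.426). Of 3 genes named slc38a2, a transporter of neutral amino acids, one was higher at 35‰ (9.14 and 5.04 against 12.3 and 10.3), one was lower (15.7 and 3.16 against 2.9 and 1.8) and one overlapped (19.9 and 14.3 against 18.8 and 17.0).

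Among the ion transport genes of the seawater gut, slc12a1 stood alone at the top. Its TPM was 27.2 and 35.5 at 18‰ and 190.6 and 74.8 at 35‰, beside 13 and 10.1 at 0‰. The gene was not called (log2 fold change 1.91, standard error 0.43, adjusted p = 0.188), and the seawater libraries differed more from each other than those at 18‰ did. Of the 28 ion pumps, channels and their regulators tested, 6 were higher and 8 lower, beside 18.7% and 29.0% of all genes, and the median was -0.03, turning to 0.04 after median-ratio scaling. No gene of this list was called by limma, and 4 had an unadjusted p under 0.05, 1 higher and 3 lower. The sodium pump subunits atp1a1a.4, at 1162 and 1615 against 1314 and 1844, and atp1b1a, at 803 and 943 against 1309 and 861, overlapped between the salinities.

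The chloride and bicarbonate carriers went both ways. The anion exchanger slc26a3.2 had a TPM of 17.9 and 33.5 at 18‰ and 4.02 and 5.59 at 35‰ (log2 fold change -2.15, standard error 0.38, adjusted p = 0.108). The related slc26a6 had 87.8 and 123.3 against 70.6 and 71.7 (log2 fold change -0.54, adjusted p = 0.456). The basolateral sodium bicarbonate cotransporter slc4a4a had 43.0 and 50.8 against 21.3 and 35.3 (log2 fold change -0.75, adjusted p = 0.362). On the higher side without overlap were slc12a9 of the cation-chloride family (log2 fold change 0.16) and the sodium bicarbonate cotransporter genes SLC4A7 (0.46) and slc4a7 (0.14), at TPM between 0.89 and 3.35 in these 4 libraries. None of these passed the test. The secretory cotransporter slc12a2 (NKCC1) was low throughout, at 2.31 and 3.8 against 1.88 and 1.99. The water channel aqp1a.1 stood at 65.2 and 48.7 at 18‰ and 22.5 and 42.7 at 35‰ (log2 fold change -0.84, standard error 0.37, adjusted p = 0.409), above the 13.8 and 8.48 of 0‰.

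Of 200 solute carriers tested, which include carriers of ions, metals and mitochondria beside those of nutrients, 86 (43.0%) were lower and 41 (20.5%) higher without overlap, beside 29.0% and 18.7% of all genes, with a median log2 fold change of -0.30. None was called by limma, while 36 lower and 13 higher ones had an unadjusted p under 0.05. Of the 24 nutrient carriers of the brush border list, 10 (41.7%) were lower and 3 (12.5%) higher, with a median of -0.38. The neutral amino acid carrier slc6a19a.2 stood at 788 and 814 against 173 and 318.5 (log2 fold change -1.77, standard error 0.34, adjusted p = 0.127). Its 0‰ libraries had 257 and 375, also below 18‰. Glutamine carrier slc1a5 stood at 16.1 and 13.6 against 1.79 and 3.67, the lowest adjusted p of these carriers (log2 fold change -2.13, adjusted p = 0.0565). At 0‰ it had 8.14 and 7.67, between the other salinities. The peptide carrier slc15a1b, at 1444 and 1306 against 759 and 871, was also lower in both libraries (log2 fold change -0.76, adjusted p = 0.380).

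Copies of one carrier did not go together. Of 4 genes with the name of slc5a1, the sodium-glucose cotransporter, one had a TPM of 291 and 416 against 95.7 and 186 (log2 fold change -1.37, adjusted p = 0.229), 2 had log2 fold changes of -0.00 and -0.02, and SLC5A1 (ENSPREG00000009765) had 5.56 and 17.0 against 12.9 and 11.9 (log2 fold change 0.30), the last 3 with overlap. Reads of near-identical copies can be split between them by the counting, so the single copies are uncertain. The bile acid carrier slc10a2 depended on 1 library. It had 706 and 613 at 18‰ and 429 in 35‰ replicate 2, and replicate 1 listed it at 0 (adjusted p = 0.431).

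**Figure D4:**
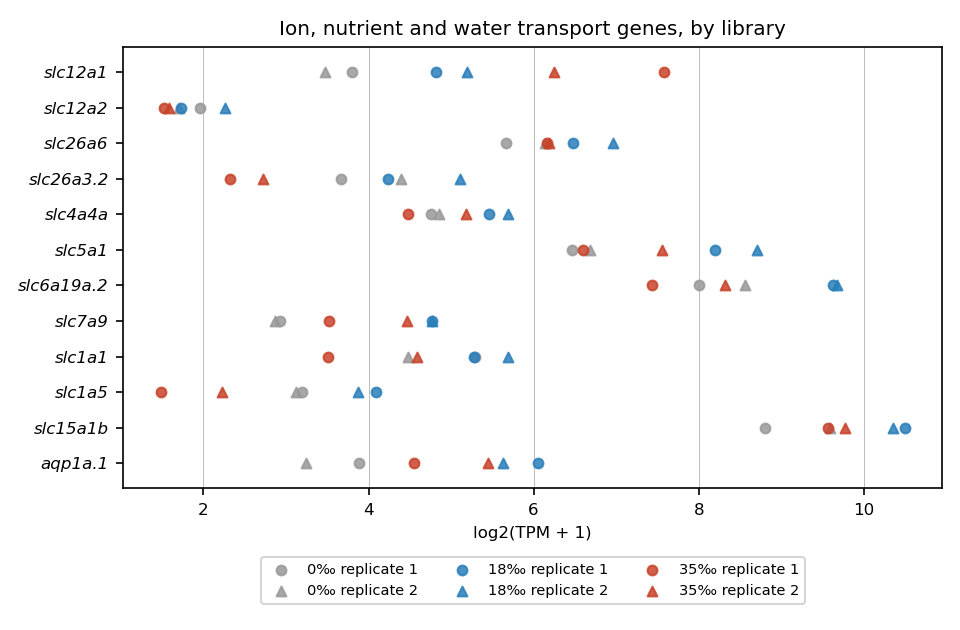
Level of 12 ion, nutrient and water transport genes in each library, as log2(TPM + 1), with grey for 0‰, blue for 18‰ and red for 35‰, and circles and triangles for replicates 1 and 2. Only slc12a1, at 190.6 and 74.8 TPM in seawater, has both 35‰ points to the right of both 18‰ points, and the other 11 genes have both to the left. The 12 genes were picked and do not stand for their lists. Of the 28 ion transport genes 6 were higher and 8 lower, and of the 24 nutrient carriers 3 were higher and 10 lower. The slc5a1 copy shown is the one with the lowest limma p, and the libraries of the other copies overlapped.

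Enzymes and scaffold of the brush border, the microvillus surface where digestion is completed, were lower as a list. Of 20 tested, 14 (70.0%) were lower and 3 (15.0%) higher, beside 29.0% and 18.7% of all genes, with a median log2 fold change of -0.67. The TPM of all 22 genes of the list summed to 9316 and 10912 at 18‰ and to 4701 and 7399 at 35‰. At 0‰ the sums were 4858 and 6714, so they stood lower at either end than at 18‰. None was called by limma while 10 had an unadjusted p under 0.05, all lower. The peptidase ace had a TPM of 109.7 and 231 at 18‰ and 19.3 and 40.7 at 35‰ (log2 fold change -2.46, standard error 0.45, adjusted p = 0.118). Intestinal alkaline phosphatase alpi.2 stood at 220.2 and 353 against 114 and 135, and lactase, LCT, at 62.9 and 67.4 against 27.1 and 31.8 (log2 fold changes -1.16 and -1.12). The microvillus linker ezrb, at 15.4 and 13.7 against 7.74 and 6.18, was lower by 0.97 on the same scale. The 3 higher ones were the trehalose-splitting treh, the metalloprotease mep1b and the actin bundler espn, with log2 fold changes of 0.99, 0.75 and 0.64. A further gene of the mep1b name, MEP1B (ENSPREG00000006193), was lower without overlap (-0.62).

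The list of mucus and goblet cell genes was lower to a like degree. Of 13 genes tested, 10 (76.9%) were lower and 2 (15.4%) higher, beside 29.0% and 18.7% of all genes. All but muc13b, SPDEF and agr2 were galnt genes, so the counts describe that family more than mucins or goblet cells. Their median log2 fold change was -0.61. None was called by limma, with 7 at an unadjusted p under 0.05, 5 lower and 2 higher. Their TPM summed to 2479 and 2560.2 at 18‰ and to 854 and 1197 at 35‰, beside 1336 and 1115 at 0‰. Most of the sum was the membrane mucin muc13b, at 1835 and 2106 against 584 and 828 (log2 fold change -1.5, standard error 0.26, adjusted p = 0.106). At 0‰ muc13b stood at 547 and 685, below 18‰. SPDEF, a transcription factor of goblet cells, stood at 28.0 and 25.7 against 5.24 and 11.2 (log2 fold change -1.67, adjusted p = 0.191). The 2 higher ones were galnt14 and galnt17, of the family that starts O-linked sugar chains on mucins, with log2 fold changes of 2.03 and 1.5.

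Of 24 genes tested from the list of tight junctions and keratins, 8 (33.3%) were lower and 5 (20.8%) higher. This was close to the 29.0% and 18.7% of all genes, with a median of -0.24. No keratin was among the 24, so the counts describe junction, adhesion and related genes only. None was called by limma, with 6 lower and 2 higher at an unadjusted p under 0.05. The sealing protein oclna stood at 31.5 and 28.6 against 13 and 12.9 (log2 fold change -1.15, standard error 0.22, adjusted p = 0.118), and the claudin cldnc at 209.5 and 182 against 92.8 and 119 (log2 fold change -0.89). Going the other way, cldn15a, a claudin that forms cation pores in the mammalian gut, stood at 257 and 366 against 643 and 403 (log2 fold change 0.73, adjusted p = 0.394). The related cldn15b was also higher without overlap, with the highest log2 fold change of the list (2.31).

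Mitochondrial energy genes were the main group on the higher side. Of 52 genes tested from the respiratory chain and ATP synthase, 43 (82.7%) were higher at 35‰ and 4 lower without overlap, beside 18.7% and 29.0% of all genes. Their median log2 fold change was 0.48, and their TPM summed to 10443 and 10714 at 18‰ and to 14386 and 14927 at 35‰, with 10872 and 10078 at 0‰. None was called by limma, and 20 had an unadjusted p under 0.05, 19 higher and 1 lower. After median-ratio scaling 45 were higher, and after setting each library to one sum 38 were.

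The complexes were not alike. In complex I, which oxidises NADH, 27 of 28 subunits were higher and none lower (median 0.54). All 7 genes of ATP synthase, counting that of its inhibitory factor, were higher (median 0.51). In complex III it was 4 of 6. In complex II 1 of 3 was higher and 1 lower (median 0.00), and in complex IV, cytochrome oxidase, 4 of 8 were higher and 3 lower, with a median of 0.12. The complex I subunit ndufa12 had a TPM of 207 and 186 at 18‰ and 325 and 483 at 35‰ (log2 fold change 1.01, standard error 0.25, adjusted p = 0.215). The ATP synthase subunit atp5f1d stood at 402 and 522 against 858 and 802 (log2 fold change 0.85, adjusted p = 0.236), and ndufb5 at 149 and 161 against 284 and 253. The 4 lower genes were NDUFA4 (log2 fold change -1.07), COX5B (-0.62), SDHB (-0.60) and cox6b2 (-0.36).

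Other parts of the energy and protein supply were higher by less. Of 54 mitochondrial ribosomal proteins, 25 (46.3%) were higher and 3 (5.6%) lower (median 0.19), beside 18.7% and 29.0% of all genes. Among them, mrpl39 stood at 14.4 and 13.5 against 26.1 and 29.4 (log2 fold change 0.94, adjusted p = 0.188). Of 36 glycolysis and TCA cycle genes, 16 (44.4%) were higher and 4 (11.1%) lower (median 0.21). The phosphofructokinase pfkla, at the committed step of glycolysis, stood at 43.0 and 61.3 against 110 and 106, and the malate dehydrogenase mdh1aa at 1161 and 1440 against 2606 and 2227. Against that, pck1, which commits carbon to glucose synthesis, stood at 783 and 2461 at 18‰ and 175 and 634 at 35‰ (log2 fold change -2.05, adjusted p = 0.316).

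Of 34 proteasome subunits, 13 (38.2%) were higher and 4 (11.8%) lower (median 0.18), beside 18.7% and 29.0% of all genes. The counts were 19 and 3 after median-ratio scaling and 7 and 5 after each library was set to one sum. Of 54 cytosolic ribosomal proteins, 18 (33.3%) were higher and 4 (7.4%) lower (median 0.10), but 8 were higher and 8 lower after each library was set to one sum. Of 48 chaperones, 15 (31%) were lower and 7 (14.6%) higher (median -0.08), near the shares of all genes, but 8 were lower and 10 higher after median-ratio scaling. The 2 genes named HSPA2, heat shock proteins of the 70 kDa family, had 106 and 127 against 47.3 and 9.89, and 81.0 and 143 against 49.1 and 10.2, and they may share reads. None of the genes in these 5 lists was called by limma, where 13 higher and 7 lower ones had an unadjusted p under 0.05. Of 39 antioxidant and conjugation enzymes, 11 (28.2%) were higher and 11 (28.2%) lower, the latter near the share of all genes. The glutathione peroxidase gpx1b stood at 2119 and 2262 against 3872 and 3940 (log2 fold change 0.83, standard error 0.21, adjusted p = 0.214).

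**Figure D5:**
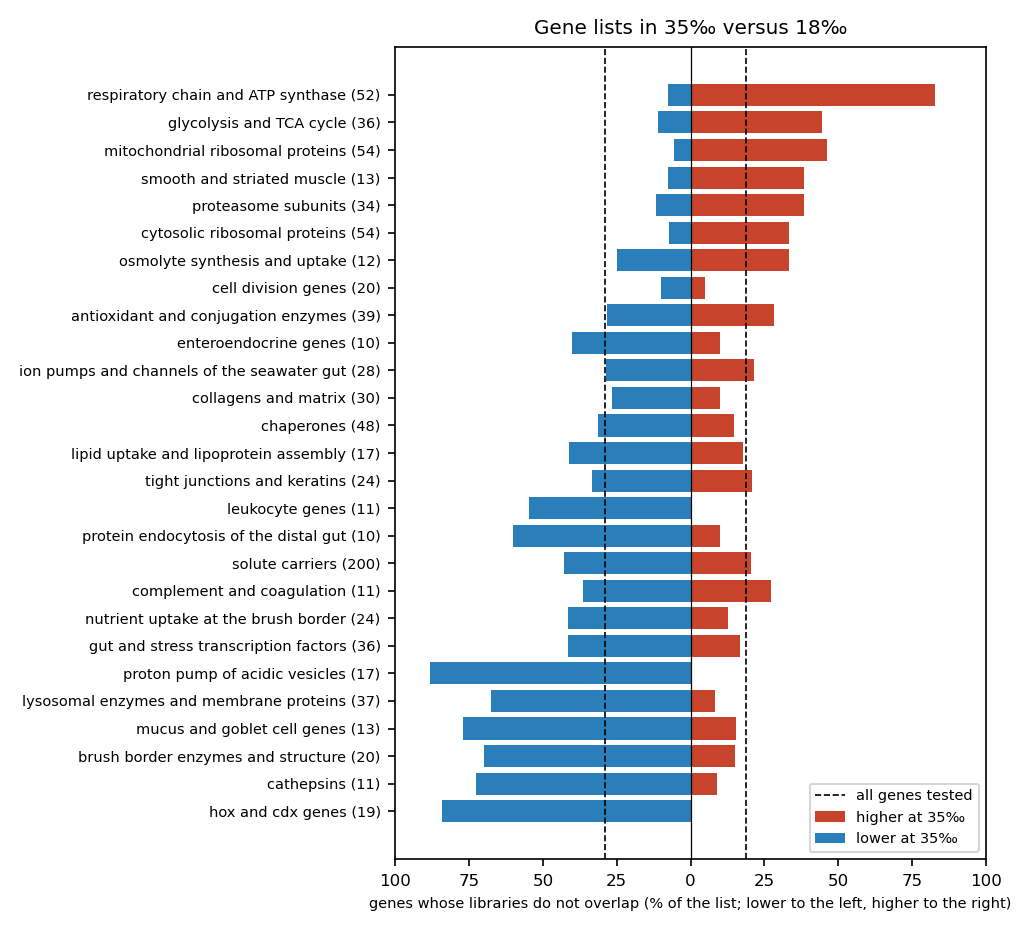
Share of each gene list whose libraries did not overlap between 35‰ and 18‰, in percent of the members tested (number in brackets), with lower genes to the left in blue and higher genes to the right in red. Dashed lines mark the shares over all 7897 genes, 29.0% lower and 18.7% higher, and lists are ordered by their median log2 fold change. Among these lists of at least 10 genes, the proton pump (88.2% lower) and the respiratory chain (82.7% higher) reach farthest on either side.

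Of 17 genes of lipid uptake and lipoprotein assembly, 7 (41.2%) were lower and 3 (17.6%) higher, beside 29.0% and 18.7% of all genes, with a median of -0.17. The lipid droplet coat protein plin2 stood at 1023 and 1427 against 455 and 683 (log2 fold change -1.11, standard error 0.30, adjusted p = 0.238), above the 322 and 413 of 0‰. The triglyceride-forming enzyme dgat2 was higher, at 3.36 and 2.76 against 20.8 and 6.38 (log2 fold change 1.65, adjusted p = 0.445).

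Of 36 transcription factors of gut identity and stress tested, 15 (41.7%) were lower and 6 (16.7%) higher, with a median of -0.40. Over all genes 29.0% were lower and 18.7% higher. None of the 36 was called by limma, with 4 lower and 2 higher at an unadjusted p under 0.05. The clock-linked repressor bhlhe41 had a TPM of 30.2 and 43.0 against 9.77 and 11 (log2 fold change -1.71, standard error 0.26, adjusted p = 0.0818). The AP-1 factor fosl1a had 28.5 and 55.0 against 2.95 and 11.1 (log2 fold change -2.56, adjusted p = 0.186). Both 0‰ libraries of fosl1a, at 11.5 and 7.62, lay under those at 18‰. The inhibitor of differentiation id1 was higher, at 72.9 and 103 against 153 and 161 (log2 fold change 0.85, adjusted p = 0.249).

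The genes for which the study had guppy primers gave no call in this step where they were tested. No gene tested carried the symbol fosl2 or slc3a1, so these genes of the study are not described here. The endoderm factor gata6 stood at 93.3 and 103 against 144 and 122 (log2 fold change 0.43, adjusted p = 0.550), and the kinase subunit pik3cb at 17.2 and 15.3 against 22.5 and 25.3 (log2 fold change 0.53, adjusted p = 0.400). Of 2 genes with the name of the repressor bhlhe40, ENSPREG00000015542 had 69.2 and 48.8 against 100.3 and 94.0 (log2 fold change 0.73, adjusted p = 0.397), and ENSPREG00000021365 had 62.0 and 73.7 against 56.0 and 39.8 (log2 fold change -0.51, adjusted p = 0.501). The libraries overlapped for the kinase SGK1 (log2 fold change -0.36) and for the factor cebpd (0.10).

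Among the higher genes with a mean TPM of at least 5 and no library at 0, the log2 fold changes were largest in cyp7a1 (5.08), ISYNA1 (4.90), vtnb (3.48) and csrp1b (2.87). The forkhead factor foxq1b had 5.25 and 5.66 at 18‰ and 31.8 and 27.9 at 35‰ (log2 fold change 2.26, standard error 0.38, adjusted p = 0.106). The LIM protein csrp1b, which binds the actin cytoskeleton, had 9.57 and 7.59 against 74.6 and 63.3, but its 0‰ libraries stood apart at 31.3 and 4.84 (adjusted p = 0.205). Vitronectin, vtnb, had 0.78 and 1.06 against 24.9 and 16.6, with 1.78 and 44.5 at 0‰ (adjusted p = 0.293).

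Of the 10 most abundant non-overlapping genes, 9 were higher at 35‰ and 1 was lower, and apart from the chitinase chia.1 (log2 fold change 2.30) the folds were small. The cytoskeletal actin actb stood at 15271 and 17202 against 18037 and 22578 (log2 fold change 0.32), and the ribosomal proteins rpl13a, rpl21 and rpl27 had log2 fold changes of 0.26, 0.31 and 0.12. The lower one was the most abundant of 3 genes named gstr, a glutathione transferase, at 4857 and 3518 against 2601 and 3203 (log2 fold change -0.52). None of these 10 was called by limma, and chia.1 alone had an unadjusted p under 0.05.

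Markers of other tissues moved in part. The leukocyte genes summed to 280 and 328 TPM at 18‰ and to 267 and 252 at 35‰. Of 11 tested, 6 (54.5%) were lower and none higher, beside 29.0% and 18.7% of all genes. The muscle genes summed to 628 and 601 at 18‰ and to 607 and 602 at 35‰, although 5 of 13 (38.5%) were higher. Among these, the fast muscle light chain mylpfa was listed at 0 and had 0.17 at 18‰, and had 37.5 and 4.88 at 35‰. The liver genes summed to 67.1 and 67.2 at 18‰ and to 33.2 and 21.1 at 35‰. Nearly all of this sum was rbp4, at 66.8 and 67.1 against 32.8 and 21.0. It was the only 1 of the 3 liver genes tested, so the sum does not describe liver transcripts in general. The red blood cell genes summed to 18.6 and 13.7 at 18‰ and to 15.5 and 18.7 at 35‰. The kidney genes summed to 0.22 and 15.7 at 35‰ where 18‰ had at most 0.20. Among 10 enteroendocrine genes 4 were lower and 1 higher, the peptide YY gene pyyb, at 139.8 and 55.4 against 315 and 169 (log2 fold change 1.38, adjusted p = 0.362). Of 11 complement and coagulation genes 4 (36.4%) were lower and 3 (27.3%) higher (median -0.31). Genes of cell division showed little difference, with 2 of 20 (10.0%) lower and 1 (5.0%) higher, under the shares of all genes. Collagen and matrix genes had 8 of 30 (26.7%) lower, near the share of all genes, and 3 (10.0%) higher. The part of these tissues in the results above was not tested.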

How the data were processed

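Intestinal RNA of the 6 libraries was sequenced as paired-end reads. According to the study's methods and the labels, the authors aligned reads to the guppy genome with STAR and obtained TPM values with StringTie, and the TPM per gene and library was deposited by the authors as 1 table. Tool versions and genome build are not given in the sources used here. TPM holds no read number, so the depth per library is unknown. The authors used DESeq2, which tests read counts, at an adjusted p of 0.05 and a fold change of 1.5, and those cutoffs were kept. As TPM are not counts, log2(TPM + 1) was fitted over all 6 libraries with limma 3.58.1 (trended variance, R 4.3.3), with Benjamini-Hochberg adjustment over all 7897 genes. A fold change on this scale understates low genes. The script was tested on simulated data. The table pairs gene identifiers with symbols, and list members were matched by symbol, 847 genes tested in 31 lists, without coordinates. Strand and copies were not checked.

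The genes and lists were chosen with earlier results of these data known. Genes were named as follows: all called genes, the 10 largest non-overlapping changes in each direction with a mean TPM of at least 5 and no value at 0, the 10 most abundant non-overlapping genes, up to 4 members of each list by p, and the genes with primers in the study. Single genes outside this rule (atp1a1a.4, atp1b1a, slc12a2, slc26a6, slc15a1b, slc10a2, cldn15a, cldn15b, cdo1, csad, treh, mep1b, MEP1B, espn, agr2, galnt14, galnt17, RAB7A, NDUFA4, COX5B, SDHB, cox6b2, hoxc9a, hoxc12a, hoxb2a, hoxa5a, hoxb3a, hoxc8a, hoxc10a, cdh17, slc12a9, SLC4A7, slc4a7 and further copies of slc5a1 and slc38a2) were chosen after their values were seen. Replicate numbers name libraries and are not stated to pair them. Alternatives were another pseudocount, filter, trend, scaling or set of libraries, and, chosen after seeing the data, genes with no value at 0.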

Additional observations from a re-analysis of the deposited data

How the results depend on the processing

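The pseudocount, trend, fold cutoff and scaling alternatives gave 19 to 26 calls beside 25, and all 25 genes kept their direction wherever they were tested. This was fixed in advance, since the called genes do not overlap between 18‰ and 35‰. The scalings could not turn it either. Their median-ratio factors ran only from 0.918 to 1.06 and the library sums from 419412 to 481864. The smallest log2 fold change of a called gene was -1.94, for mat2ab. With no filter on low values 1 gene was called (0 higher and 1 lower of 10045, 1139 at an unadjusted p under 0.05). With a mean TPM of at least 5 there were 1 higher and 19 lower, and the non-overlapping lower genes numbered 1471. With the 4 libraries at 18‰ and 35‰ alone, 10 genes rose and 31 fell. Leaving out each library in turn gave 0 to 10 higher calls and 2 to 31 lower calls. Without one library at 18‰ or 35‰ a group has a single value, so fewer values have to lie apart, and 2142 to 3139 genes were higher and 3063 to 4147 lower. Same-numbered libraries deviated together with r = 0.05 for 18‰ and 35‰, 0.06 for 0‰ and 18‰ and -0.04 for 0‰ and 35‰, so the numbers were not taken as pairing. With the replicate number as a block, 3 genes rose and 22 fell, 23 of them shared with the fit without it. Leaving out genes with any value at 0 at 18‰ or 35‰ gave 24 calls, 22 of them shared. Only genes that were not called turned direction, and the called genes could not. After median-ratio scaling the log2 fold change was 0.0062 for hoxb2a and 0.062 and 0.083 for the slc5a1 copies ENSPREG00000010019 and ENSPREG00000010034, and after setting each library to one sum it was -0.047 for alas1 and -0.0075 for slc38a2 (ENSPREG00000014787). Over the fits that leave out one library it ran from -0.88 to 0.16 for SGK1, from -0.51 to 0.71 for cebpd, from -0.28 to 0.36 for alas1, from -0.060 to 0.43 for atp1a1a.4, from -0.014 to 0.59 for atp1b1a, from -0.23 to 0.15 for hoxb2a, from -0.43 to 1.03 for SLC5A1, from -0.15 to 0.30 for the same slc38a2, and from -0.32 to 0.27 and from -0.15 to 0.15 for the same slc5a1 copies.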

Other observations

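A few further groups were picked after their values were seen and are given as description. Chitinases, which cleave the chitin of prey, were among the most abundant transcripts. Of the 3 tested, 2 (66.7%) were higher at 35‰ without overlap, beside 18.7% of all genes. The gene chia.1 had a TPM of 4713 and 4149.6 at 18‰ and 26295 and 17931 at 35‰ (log2 fold change 2.30, standard error 0.44, limma adjusted p = 0.125), beside 4139 and 10193 at 0‰. The related chia.3 stood at 24403 and 28082 against 35080.4 and 30915. Haem synthesis held 2 genes named cpox, a late enzyme of the pathway, at 34.1 and 32.3 against 181 and 83.6 and at 5.27 and 4.82 against 26.4 and 12.5, while the first enzyme alas1 overlapped, at 295 and 198 against 312 and 199 (its log2 fold change of 0.04 turned to -0.05 after each library was set to one sum, to -0.24 without 18‰ replicate 2 and to -0.28 without 35‰ replicate 1).

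Sterol and bile acid genes were highest in 1 library, 35‰ replicate 2. Cholesterol synthesis genes summed to 195 and 222 TPM at 18‰ and to 208 and 630.3 in replicates 1 and 2 at 35‰. Of 12 tested, 4 (33.3%) were higher without overlap and none lower, beside 18.7% and 29.0% of all genes. The sterol isomerase ebp stood at 17.7 and 24.3 against 28.8 and 196.6, with a log2 fold change of 1.82 (limma adjusted p = 0.399). Bile acid synthesis genes summed to 429 and 332 against 482.5 and 1239. The rate-limiting enzyme cyp7a1 had a TPM of 1.54 and 0.30 at 18‰ and 16.1 and 219.6 at 35‰ (log2 fold change 5.08, standard error 1.15, adjusted p = 0.188), and cyp8b2, at 80.4 and 36.0 against 139 and 457, had a log2 fold change of 2.21 (adjusted p = 0.242).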
